A study of Homo sapiens with 17 samples.

Results

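The genes described here encode 5 secreted proteins of the extracellular matrix: fibronectin (FN1), SPARC, decorin (DCN), fibulin-1 (FBLN1) and the ABI family member 3 binding protein (ABI3BP). They were taken as the probe sets annotated with those symbols, 1 probe set a gene, and they are 5 of the 17687 genes measured. FN1, SPARC, DCN and FBLN1 were picked with their difference between the lines already known, and ABI3BP with its fall at the Maraviroc IC50 already known. Those values are therefore given as a description, without a test.

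Expression was measured on 17 Affymetrix arrays of human breast cell lines, and every value is a log2 signal as deposited. MDA-MB-231, a mesenchymal triple-negative breast cancer line, contributed 13 arrays: 2 each for DZH_2 at IC20 and at IC50, Maraviroc at IC20 and at IC50, and the solvents DMSO and ethanol, with 1 array for cells left untreated. A further 4 arrays are titled MCF10, a non-tumorigenic mammary epithelial line, with 1 each for DZH_2 at IC20 and at IC50, DMSO and untreated cells. DZH_2 is known here only by its code name and was set against DMSO, whereas Maraviroc, a drug used against HIV, was set against ethanol. Treatment began 24 h after seeding and lasted 48 h. The doses are named by their effect, 20% (IC20) and 50% (IC50) inhibition, and no molar value was used here. Whether replicates were separate cultures is not stated in the labels. A p-value here therefore sets a difference only against the spread among these arrays, a spread that may be technical.

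Fibronectin is a large glycoprotein that cells assemble into fibrils through integrins, and it carries many other matrix proteins. SPARC is a collagen-binding glycoprotein that moderates contact between cells and matrix. Decorin is a small leucine-rich proteoglycan that binds collagen fibrils and transforming growth factor beta. Fibulin-1 binds fibronectin, laminin and elastic fibres, and ABI3BP is a secreted protein with fibronectin type III domains. Fibroblasts make much of this matrix in the breast, and carcinoma cells that have taken on mesenchymal features often make fibronectin and SPARC themselves.

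The promoter sequences are shown because 4 of the genes stand together between the lines while ABI3BP does not. They are the 250 bases before the annotated start, from RefSeq on GRCh38.p14, read 5′ to 3′ on the gene's strand. Of the 5 genes, 4 matched the RefSeq promoter set, all but DCN. FN1 lies at chr2:215436069-215436318 on the minus strand, SPARC at chr5:151686916-151687165 on the minus strand, FBLN1 at chr22:45502633-45502882 on the plus strand and ABI3BP at chr3:100993422-100993671 on the minus strand. Capitals mark every match, on either strand, to the motifs searched. These were the TATA box, searched as TATAAA, and the CCAAT box, searched by those letters. The GC box was searched as GGGCGG and the cAMP response element as TGACGTCA. The AP-1 site was searched as TGANTCA, and the purine repeat of the SPARC promoter as GGAGGAGG.
FN1: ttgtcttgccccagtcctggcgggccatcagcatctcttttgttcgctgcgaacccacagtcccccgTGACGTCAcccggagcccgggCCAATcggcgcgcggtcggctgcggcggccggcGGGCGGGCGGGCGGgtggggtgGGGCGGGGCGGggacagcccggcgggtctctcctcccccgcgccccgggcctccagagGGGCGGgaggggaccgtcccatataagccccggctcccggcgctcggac
SPARC: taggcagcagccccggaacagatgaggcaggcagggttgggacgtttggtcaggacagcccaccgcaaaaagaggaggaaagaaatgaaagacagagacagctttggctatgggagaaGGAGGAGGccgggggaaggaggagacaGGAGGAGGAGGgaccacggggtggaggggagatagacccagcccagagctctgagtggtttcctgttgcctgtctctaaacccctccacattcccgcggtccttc
FBLN1: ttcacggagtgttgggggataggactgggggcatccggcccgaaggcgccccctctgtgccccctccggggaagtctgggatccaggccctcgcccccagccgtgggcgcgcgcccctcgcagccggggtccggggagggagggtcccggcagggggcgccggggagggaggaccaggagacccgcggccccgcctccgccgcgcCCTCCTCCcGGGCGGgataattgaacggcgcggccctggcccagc
ABI3BP: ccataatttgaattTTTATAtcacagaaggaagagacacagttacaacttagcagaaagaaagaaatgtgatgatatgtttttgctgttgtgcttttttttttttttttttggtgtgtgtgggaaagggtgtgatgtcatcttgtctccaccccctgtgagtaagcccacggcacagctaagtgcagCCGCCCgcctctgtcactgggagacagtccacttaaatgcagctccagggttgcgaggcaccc

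The FN1 promoter held 1 cAMP response element, a motif present in 1.65% of the 35116 RefSeq promoters of this length. It also held 1 CCAAT box, present in 32% of promoters, and 6 GC boxes, partly overlapping, with at least 1 in 42.6% of promoters. SPARC held 3 matches to GGAGGAGG, of which 2 overlap. This motif was added to the search after the SPARC sequence was seen, and 9.45% of promoters hold it. FBLN1 held 1 GC box and, on the other strand, 1 GGAGGAGG. ABI3BP held 1 match to TATAAA, 231 to 236 bases before the start, and 1 GC box, both on the other strand. A TATAAA match at any place in the window occurs in 10.7% of promoters. Other TATA spellings were not searched, so the letters atataag near the FN1 start are not marked. No AP-1 site, found in 6.57% of promoters, was in any of the 4 windows. The GC content was 77.6% for FBLN1, 76.4% for FN1, 59.2% for SPARC and 45.2% for ABI3BP, against a median of 58% over all promoters. No motif was common to FN1, SPARC and FBLN1. A match is a description of letters and not of a bound site.

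A gene is called near the negative controls on an array where its signal lay no higher than the 75th percentile among that array's 612 negative controls. That level was 6.05 to 6.60 on the arrays titled MCF10 and 5.64 to 6.46 on the MDA-MB-231 arrays. The Maraviroc IC50 replicates stood further apart than the others, with a root mean square SD over all genes of 0.546, against 0.277 to 0.366 in the other 5 replicated groups. The 4 arrays titled MCF10 carry MDA-MB-231 in another label, the cell line, and the titles were followed. Markers do not give these arrays a plain mammary epithelial profile. Of the luminal epithelial genes, CDH1 and EPCAM averaged 4.07 and 5.24 in their 2 control arrays, near the negative controls, while KRT8, KRT18 and CLDN7 averaged 14.18, 12.8 and 9.29. Of the basal genes, KRT14 and DSG3 averaged 4.76 and 4.82, near the negative controls, while S100A2 and ITGB4 averaged 14.85 and 15.3. The line is therefore called by its title.

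FN1, the fibril-forming glycoprotein, was far higher on the arrays titled MCF10. It read 17.69 on the untreated, 17.60 on the DMSO, 16.70 on the DZH_2 IC20 and 17.46 on the DZH_2 IC50 array titled MCF10. In MDA-MB-231 it ranged from 6.22 to 11.19 over the 13 arrays, with the highest value in untreated cells and the lowest on Maraviroc IC50 replicate 2. The arrays of the lines did not overlap. In DMSO the difference was 8.14 on the log2 scale, or 283-fold, and in untreated cells it was 6.50, or 90.4-fold.

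FBLN1, which binds fibronectin, read 13.65 on both the untreated and the DMSO array titled MCF10, 12.56 at the DZH_2 IC20 and 12.26 at the IC50. In MDA-MB-231 it ranged from 4.69 to 5.69 and was near the negative controls on all 13 arrays. A gene near the negative controls has only an upper bound, so its fold is given as a minimum. In DMSO, FBLN1 was at least 204-fold higher in the cells titled MCF10 than in MDA-MB-231, and in untreated cells at least 211-fold. With the 90th percentile of the negative controls these minima were 91.6-fold and 84.4-fold.

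SPARC, the collagen-binding glycoprotein, read 11.49 on the untreated, 11.84 on the DMSO, 11.62 on the DZH_2 IC20 and 11.18 on the DZH_2 IC50 array titled MCF10. In MDA-MB-231 it ranged from 5.21 to 8.28 and lay above the negative controls on 4 of 13 arrays, namely Maraviroc IC50 replicate 1, both DZH_2 IC50 arrays and ethanol replicate 1. The lines did not overlap. In DMSO the difference was at least 58.5-fold and in untreated cells at least 47.1-fold. With the 90th percentile of the negative controls these minima were 26.2-fold and 18.8-fold.

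DCN, the collagen-binding proteoglycan, read 10.60 on the untreated, 10.30 on the DMSO, 9.62 on the DZH_2 IC20 and 8.85 on the DZH_2 IC50 array titled MCF10. In MDA-MB-231 it ranged from 5.14 to 6.02 and exceeded the negative controls only on ethanol replicate 1. In DMSO it was higher in the cells titled MCF10 by at least 4.32 on the log2 scale, and in untreated cells at least 25.6-fold. With the 90th percentile of the negative controls these minima were 3.17 on the log2 scale and 10.2-fold. With bulk RNA, a larger share of cells making a transcript and more of it per cell cannot be told apart.

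ABI3BP ran the other way in the control arrays. It read 8.80 on the untreated and 8.95 on the DMSO array titled MCF10, against 11.89 in untreated MDA-MB-231 and 12.63 and 13.63 in DMSO. It was 18.1-fold lower in DMSO and 8.5-fold lower in untreated cells titled MCF10. Over all arrays the lines overlapped, since ABI3BP was near the negative controls on both Maraviroc IC50 arrays of MDA-MB-231.

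**Figure D1:**
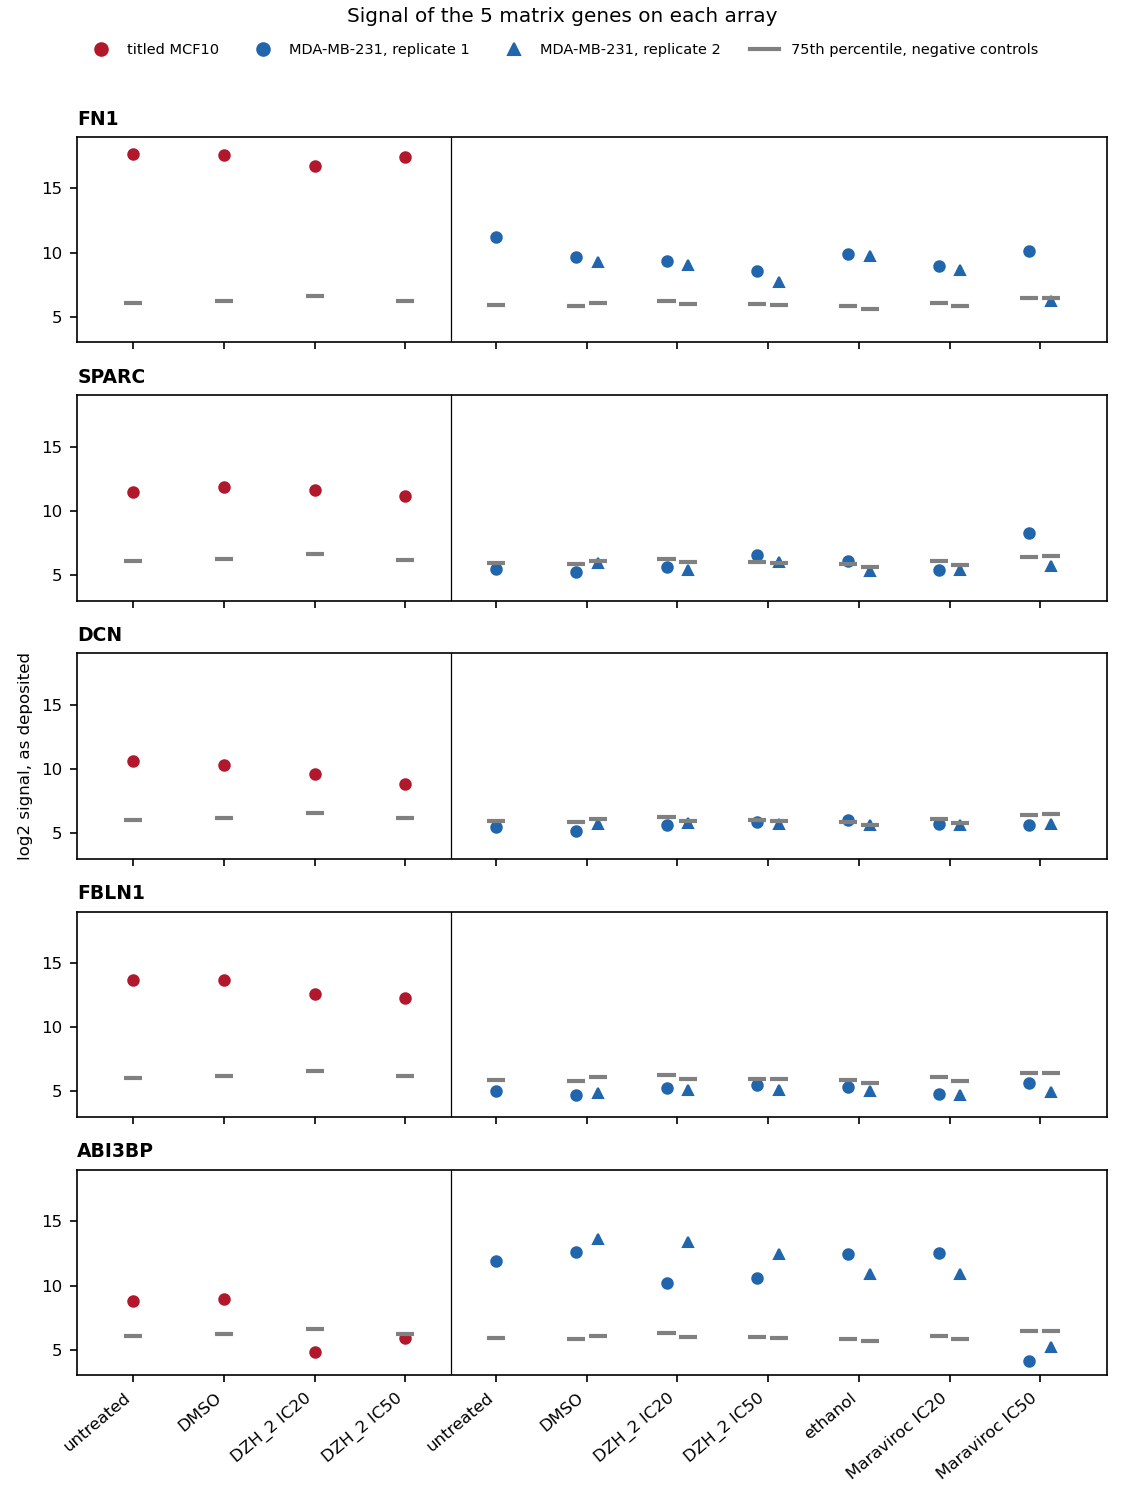
Log2 signal as deposited (vertical axis, 1 panel a gene) on each of the 17 arrays, with the arrays titled MCF10 in red at the left and MDA-MB-231 in blue at the right (circle replicate 1, triangle replicate 2), and grey dashes at the 75th percentile of the negative controls. FN1, SPARC, DCN and FBLN1 are higher on all 4 red arrays than on all 13 blue ones, and ABI3BP drops to 4.12 and 5.25 at the Maraviroc IC50.

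All 4 arrays titled MCF10 lay above all 13 MDA-MB-231 arrays for 4 of the 5 genes, and 6.04% of all genes did so. These genes were picked with that difference in view, so nothing is read from the count. Fibroblast markers also differed between the lines. Of 14 such markers 13 were measured, and 4 (COL6A3, S100A4, TWIST2 and FAP) lay higher on all arrays titled MCF10 while 0 lay lower. FAP averaged 4.85 in the controls titled MCF10, near the negative controls. Some ran the other way in the controls: THY1 averaged 7.23 titled MCF10 and 9.72 in MDA-MB-231, and PRRX1 5.59 and 6.89. The mean log2 signal of that list was 6.95 to 7.48 on the arrays titled MCF10 and 5.67 to 5.92 on the MDA-MB-231 arrays. Among its defining genes, COL6A3, S100A4 and TWIST2 averaged 10.9, 13.2 and 11.1 in the controls titled MCF10, while COL1A1, PDGFRA, LUM and DPT averaged 6.18, 4.76, 4.74 and 5.53 there. The 8 measured basal epithelial markers averaged 8.28 to 9.75 on the arrays titled MCF10 and 5.58 to 7.46 on the MDA-MB-231 arrays. Of 6 smooth muscle or myoepithelial markers 3 lay higher on all arrays titled MCF10 and 0 lower, with a list mean of 8.25 to 8.55 there and 6.44 to 7.07 on the MDA-MB-231 arrays. In the controls ACTA2 averaged 10.39 and 7.07 in the same order of lines, and TAGLN 12.70 and 6.30. MYH11 averaged 6.88 and 5.68, CNN1 7.01 and 6.51, and DES 6.05 in both. MYLK went the other way, at 7.35 and 8.63. The part of these cell types in the difference was not tested.

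In MDA-MB-231 the study asked what DZH_2 changes relative to its solvent. FN1 was lower at the IC50 and close to solvent at the IC20. It read 9.34 and 9.02 at the DZH_2 IC20 and 8.53 and 7.68 at the IC50, against 9.65 and 9.26 in DMSO. Both IC50 arrays lay below both DMSO arrays, while the IC20 arrays overlapped them. The difference was -0.27 ± 0.84 at the IC20 (SE, n = 2 a group) and -1.35 ± 0.84 at the IC50, with a 95% interval of -3.17 to 0.47. By limma with Benjamini-Hochberg adjustment over all genes, the IC50 difference missed the threshold (adjusted p = 0.494). The SE comes from 1 spread per gene over the 12 replicated arrays, and for FN1 that spread includes the widely separated Maraviroc IC50 replicates. Fitted without those arrays, the same difference of -1.35 passed (adjusted p = 0.0239), as it did in a fit of the DZH_2 IC50 and DMSO arrays alone (adjusted p = 0.0464). Over all alternatives the adjusted p of this difference ranged up to 0.851.

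SPARC read 5.62 and 5.41 at the DZH_2 IC20 and 6.54 and 5.99 at the IC50, against 5.21 and 5.94 in DMSO. Both IC50 arrays lay just above both DMSO arrays and just above the negative controls. The IC50 difference of 0.69 ± 0.61 had a 95% interval of -0.62 to 2.01 and missed the threshold (limma adjusted p = 0.656). DCN differed by 0.37 ± 0.27 and FBLN1 by 0.51 ± 0.29 at the IC50, with both genes near the negative controls on every DZH_2 and DMSO array. Their limma adjusted p was 0.559 and 0.440, so no change of either was detectable at this signal.

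ABI3BP, the protein with fibronectin type III domains, was scattered under DZH_2. It read 10.23 and 13.36 at the DZH_2 IC20 and 10.61 and 12.46 at the IC50, against 12.63 and 13.63 in DMSO. Of the IC20 arrays, replicate 1 lay below both DMSO arrays and replicate 2 between them. Both IC50 arrays lay below DMSO, replicate 1 well below and replicate 2 just below. The difference was -1.33 ± 0.93 at the IC20 (limma adjusted p = 0.664) and -1.60 ± 0.93 at the IC50 (limma adjusted p = 0.455), with a 95% interval of -3.62 to 0.42 at the IC50. Neither passed. The sign at the IC20 turns without IC20 replicate 1, where the difference was 0.23.

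By this test 0 of the 5 genes passed for DZH_2 at either dose, against 0.871% of all genes at the IC20 (0.435% in each direction) and 1.57% at the IC50. At the IC20, FBLN1 alone had both treated arrays above both DMSO arrays, as 22.7% of all genes did, and 0 of the 5 had both below, against 22.2% of all genes. At the IC50, 3 of the 5 genes (SPARC, DCN and FBLN1) had both treated arrays above both DMSO arrays and 2 (FN1 and ABI3BP) had both below. Of all genes 26.5% lay wholly above and 23.5% wholly below, so such separation with 2 arrays a group is common. Between the DZH_2 doses 0 of the 5 genes passed, as did 0% of all genes, with 721 genes at an unadjusted p under 0.05. The largest dose difference among the 5 was FN1, at -1.07 ± 0.84 for IC50 against IC20.

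Maraviroc gave the deepest value of the set. ABI3BP read 12.51 and 10.90 at the IC20 and 4.12 and 5.25 at the IC50, against 12.48 and 10.88 in ethanol. The IC20 arrays matched the ethanol arrays closely, and both IC50 arrays were near the negative controls. The measured means were 4.68 ± 0.79 at the IC50 and 11.68 ± 1.13 in ethanol (SD, n = 2 each), a difference of -7.00. Bounded by the 75th percentile of the negative controls, ABI3BP was at least 37.8-fold lower at the IC50 than in ethanol. Their 90th percentile was 7.76 and 7.91 on the IC50 arrays, so a bound taken there would be smaller. This fall is what the gene was chosen on, and so it has no test here. The 2 IC50 arrays also had the lowest positive control medians of the 13 MDA-MB-231 arrays (11.99 and 12.01, with the others from 12.41) and the lowest gene medians (6.84 and 6.90). The mean log2 signal of 11 mesenchymal markers was 9.16 and 8.71 there, against 10.96 and 10.79 in ethanol, and that of 8 basal markers was 6.07 and 5.58, against 7.23 and 7.04. The part of array quality or of these markers in the Maraviroc IC50 values was not tested. At the IC20 the difference was 0.03 ± 0.93, with a 95% interval of -1.995 to 2.05 (limma adjusted p = 1.00).

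FN1 read 8.92 and 8.67 at the Maraviroc IC20 and 10.16 and 6.22 at the IC50, against 9.87 and 9.75 in ethanol. Both IC20 arrays lay below both ethanol arrays, with a mean difference of -1.01 ± 0.84 (limma adjusted p = 1.00). FBLN1 likewise lay below at the IC20, and such separation was seen for 15.2% of all genes. At the IC50 one replicate lay above ethanol and the other fell among the negative controls. The fitted difference was -1.62 ± 0.84 with a 95% interval of -3.44 to 0.20 (limma adjusted p = 0.185). This value rests on 1 array, since it was -3.59 without replicate 1 and 0.35 without replicate 2. Each of these has a single treated array, so neither holds the spread between the IC50 replicates.

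SPARC also split between the IC50 replicates. It read 5.42 and 5.41 at the Maraviroc IC20 and 8.28 and 5.71 at the IC50, against 6.10 and 5.35 in ethanol. Here replicate 1 was the IC50 array further from ethanol, whereas for FN1 it was replicate 2. Only IC50 replicate 1 stood clear of the negative controls. The difference at the IC50 was 1.27 ± 0.61, with a 95% interval of -0.05 to 2.58 (limma adjusted p = 0.151). It was 2.55 without replicate 2 and -0.02 without replicate 1, each from a single treated array. Against all 5 control arrays together it was 1.38 and passed (limma adjusted p = 0.0321).

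DCN read 5.67 and 5.71 at the Maraviroc IC50, against 6.02 and 5.61 in ethanol, and FBLN1 read 5.69 and 4.94, against 5.32 and 5.04. Both genes overlapped ethanol and were near the negative controls at the IC50. The differences were -0.12 ± 0.27 for DCN and 0.14 ± 0.29 for FBLN1 (limma adjusted p = 0.778 and 0.768). For Maraviroc against ethanol, 0 of the 5 genes passed at the IC20, as did 0% of all genes, with 309 at an unadjusted p under 0.05. At the IC50 0 of the 4 genes other than ABI3BP passed, against 27% of all genes. The ABI3BP arrays at the IC50 lay below both ethanol arrays, as 25.7% of all genes did, and nothing is read from this since the gene was chosen on that contrast. Between the Maraviroc doses 26.7% of all genes passed, and SPARC differed by 1.58 ± 0.61 for IC50 against IC20 (limma adjusted p = 0.0749).

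**Figure D2:**
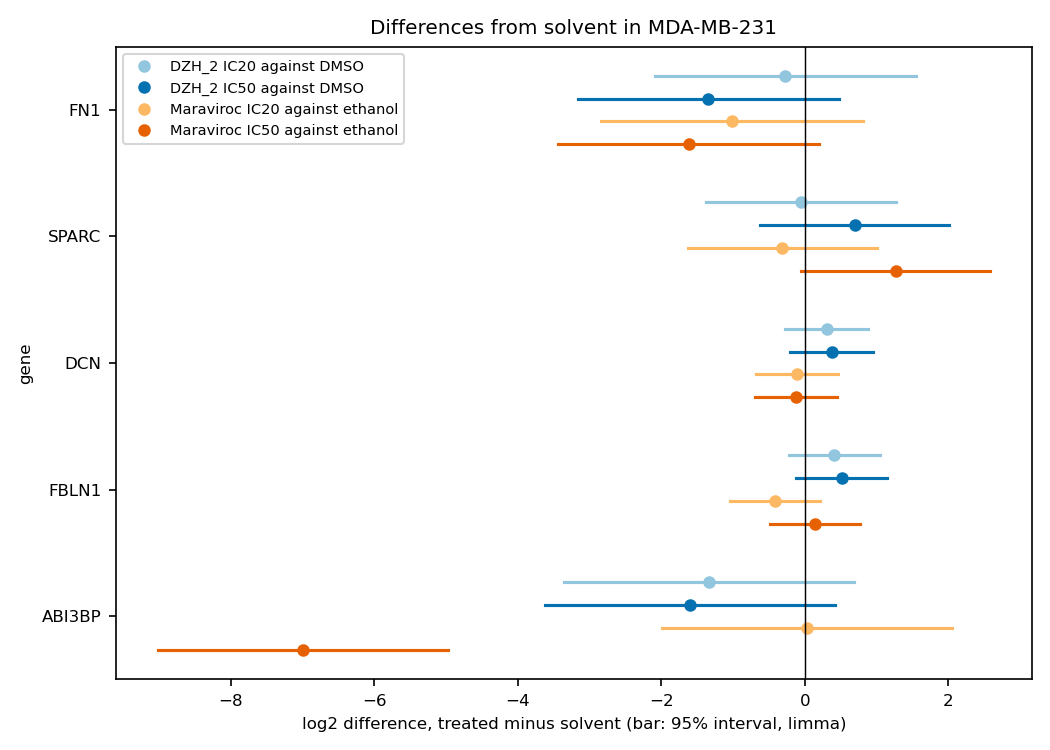
Log2 difference from solvent in MDA-MB-231 (horizontal axis) for each gene, with the point at the treated minus solvent means and the bar at the 95% interval from limma, for 2 arrays a group. ABI3BP at the Maraviroc IC50 stands at -7.00, but both IC50 arrays are near the negative controls, and the bounded difference is -5.24. The gene was chosen on this fall, so its bar is not a test. The intervals of the other points include 0.

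The compounds were also compared at their IC50 by the difference between their differences from solvent, DZH_2 minus Maraviroc, over 5 genes. Such differences passed for 6.17% of all genes, 4.02% higher and 2.15% lower. For FN1 the value was 0.27 ± 1.19 with a 95% interval of -2.30 to 2.85, and for SPARC it was -0.57 ± 0.86 with an interval of -2.44 to 1.29. For DCN it was 0.50 ± 0.38 (interval -0.31 to 1.31) and for FBLN1 0.37 ± 0.41 (interval -0.52 to 1.26). These 4 missed the threshold (limma adjusted p of 0.542 to 0.939), which does not show that the compounds act alike on them. For ABI3BP the difference was at least 3.64, since its Maraviroc side is bounded by the negative controls, and it is given without a test because that side chose the gene. The solvents themselves differed for 0 of the 5 genes and 0% of all genes, with 1352 genes at an unadjusted p under 0.05. ABI3BP was lower in both ethanol arrays than in both DMSO arrays, with a mean difference of -1.45 ± 0.93 (limma adjusted p = 0.766).

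The replicates of the Maraviroc IC50 group disagreed for FN1 more than for nearly any other gene. Replicate 1 minus replicate 2 was 3.94 for FN1, and 3 of 17687 genes had a larger absolute difference: CCN1 at 4.37, ADGRG1 at 4.16 and RHOT1 at -4.10. CCN1 encodes a matricellular protein that binds integrins. For SPARC the difference was 2.57, with 76 genes larger, for FBLN1 it was 0.75, and for DCN it was -0.04. FN1 and SPARC are high on the arrays titled MCF10, and so other genes of those arrays were read on the same 2 replicates. S100A2, at 10.7 to 14.9 on the arrays titled MCF10, read 6.42 and 6.24 on replicates 1 and 2. TGFBI, at 18.19 to 18.39 there, read 8.74 and 7.33, against 10.75 and 11.24 in ethanol. Of 28 genes high on the arrays titled MCF10 and dim on the other MDA-MB-231 arrays, 1 was higher by over 1 in replicate 1, and 0 were above the negative controls on either. The part of RNA from other cells in the FN1 and SPARC split was not tested.

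ABI3BP had wide replicate differences in 5 of the 6 groups. Replicate 1 minus replicate 2 was -3.13 at the DZH_2 IC20, where 8 genes differed more, and -1.85 at the DZH_2 IC50, where 35 did. It was 1.61 at the Maraviroc IC20, with 15 genes larger, and 1.60 in ethanol, with 54 larger. In DMSO it was -1.01, with 323 larger. At the Maraviroc IC50 it was -1.12, with 2405 larger and both values near the negative controls. The scatter of ABI3BP among replicates of 1 group was thus of the same order as its DZH_2 differences. The replicate difference was negative in DMSO, in both DZH_2 groups and at the Maraviroc IC50, and positive in ethanol and at the Maraviroc IC20. Each DZH_2 array lay below the DMSO array of the same replicate number. Pairing by replicate number within a solvent was not fitted.

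**Figure D3:**
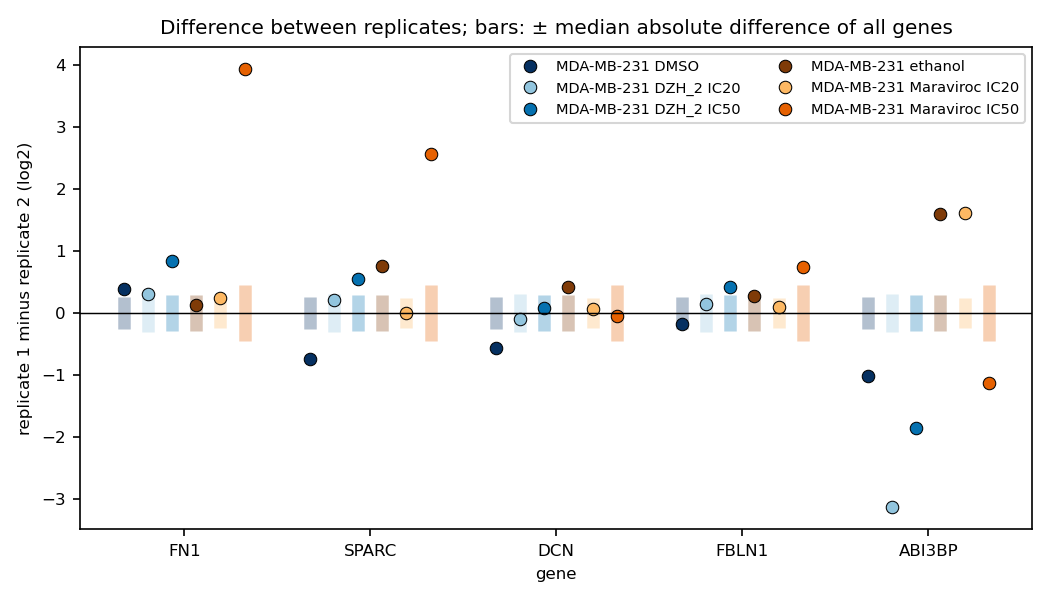
Replicate 1 minus replicate 2 on the log2 scale (vertical axis) for each gene in the 6 replicated MDA-MB-231 groups, with pale bars spanning plus and minus the median absolute difference of all genes in that group. FN1 at 3.94 and SPARC at 2.57 stand out in the Maraviroc IC50 group, and ABI3BP departs from 0 by 1.01 or more in all 6.

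On the arrays titled MCF10, with 1 array a group and so no replicate check, DZH_2 went with lower ABI3BP, FBLN1 and DCN. ABI3BP read 4.83 at the IC20 and 5.94 at the IC50, against 8.95 in DMSO and 8.80 in untreated cells. Both treated arrays were near the negative controls. Bounded by their 75th percentile, ABI3BP was at least 5.10-fold lower at the IC20 and at least 6.76-fold lower at the IC50. The 90th percentile of the negative controls was 7.94 at the IC20 and 7.61 at the IC50, so bounds taken there would be smaller. The measured differences from DMSO, -4.12 and -3.01, rest on signals near the negative controls, so the order of the doses cannot be read.

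FBLN1 differed from DMSO by -1.09 at the IC20 and -1.39 at the IC50, and by 0.00 in untreated cells. DCN differed by -0.68 and -1.45, and by 0.31 in untreated cells, so it was lowest at the higher dose. FN1 differed by -0.89 and -0.13, and SPARC by -0.23 and -0.66, with untreated cells at 0.09 and -0.36. The central 90% of all genes spanned -1.59 to 1.44 at the IC20, -1.28 to 1.33 at the IC50 and -0.94 to 0.93 in untreated cells. Only ABI3BP at both doses, and DCN and FBLN1 at the IC50, lay outside those spans. A fall of at least 1 at both doses was seen for 2 of the 5 genes, ABI3BP and FBLN1, and for 4.88% of all genes. With quantile normalization FBLN1 differed by -0.64 at the IC20 and left that count. The IC20 array had the lowest positive control median of the 4, at 11.01, against 11.4 at the IC50 and 11.5 in DMSO, and the part of this in the differences was not tested.

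Some basal epithelial markers were also lower on both DZH_2 arrays. Of 15 such markers 8 were measured, and 4 (S100A2, KRT5, ITGB4 and TRIM29) were lower by at least 1 at both doses while 0 were higher by that much. The mean log2 signal of the list was 8.59 at the IC20 and 8.28 at the IC50, against 9.68 in DMSO and 9.75 in untreated cells. S100A2 differed by -3.54 and -4.04, while SFN was higher, by 0.62 and 1.59, and ITGA6 differed by 1.22 and -0.47. KRT5 was near the negative controls on both DZH_2 arrays, so its differences are bounds, of -2.32 at the IC20 and -2.73 at the IC50. The fibroblast list averaged 7.29 and 6.95, against 7.48 in DMSO and 7.31 in untreated cells, with 3 of 13 measured genes lower by at least 1 at both doses and 1 higher. The part of either in the falls of ABI3BP, FBLN1 and DCN was not tested.

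**Figure D4:**
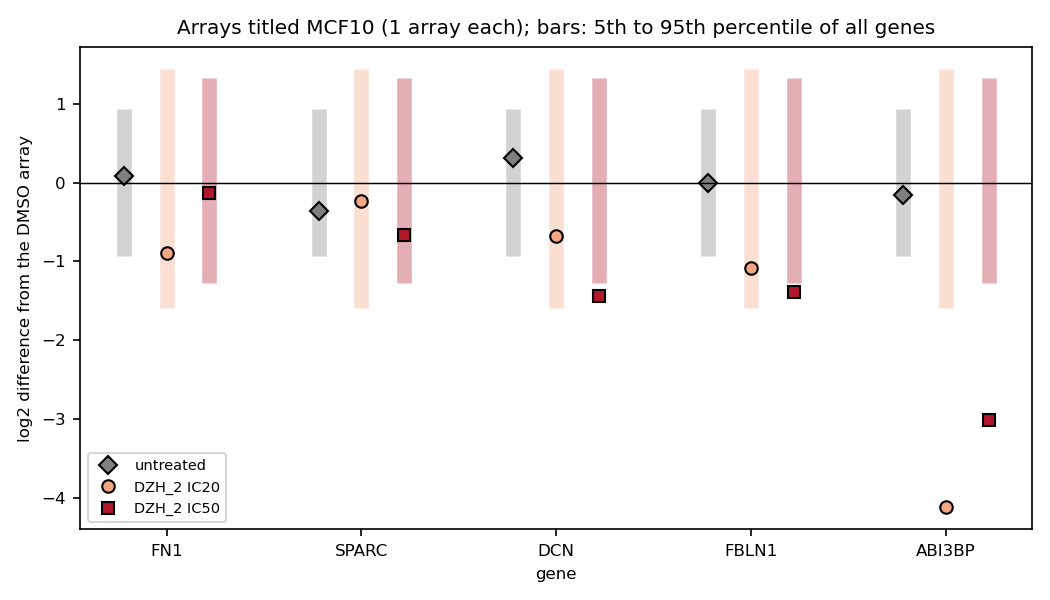
Log2 difference from the DMSO array (vertical axis) for each gene on the other 3 arrays titled MCF10, with pale bars from the 5th to the 95th percentile of all genes on that array. ABI3BP lies at -4.12 and -3.01 under DZH_2, outside the bars, and at -0.15 in untreated cells, inside them.

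The wider matrix was described with 5 gene lists, none of which holds the 5 genes. At the Maraviroc IC50, 7 of 53 measured matrix glycoproteins rose and 9 fell in MDA-MB-231, against 12% of all genes that rose and 15% that fell. Their median difference was 0.06, against 0.11 over all genes. Of the 7 that rose, POSTN, CCN3, SVEP1 and NID2 were near the negative controls on all 4 arrays compared. The count of those that rose was 3 without ethanol replicate 1, 4 with the filter on dim genes and 12 with median centring. The 4 with the smallest p all fell. IGFBP7, a secreted insulin-like growth factor binding protein, read 11.18 and 10.48 at the IC50, against 15.74 and 15.63 in ethanol (-4.85 ± 0.27, limma adjusted p = 6.64e-07). CCN2, the connective tissue growth factor, fell by 3.21 ± 0.35 on the log2 scale (limma adjusted p = 3.67e-05), the sushi-repeat protein SRPX fell by 3.09 ± 0.36 (limma adjusted p = 6.76e-05) and TGFBI, which binds integrins and collagens, fell by 2.96 ± 0.50 (limma adjusted p = 8.17e-04).

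Of 29 proteoglycans 4 rose and 5 fell, with a median of 0.23, and without ethanol replicate 1 or 2 the number that rose was 2 or 1. Of the 4 that rose, FMOD was near the negative controls on all 4 arrays compared, and with the filter on dim genes 3 rose. SRGN, the serglycin core protein of secretory granules, rose by 2.73 ± 0.27 (limma adjusted p = 2.09e-05). The cell surface proteoglycan SDC3 read 9.56 and 9.43 at the IC50, against 11.42 and 11.58 in ethanol (limma adjusted p = 1.33e-04). Its relative SDC1 fell by 1.75 ± 0.35 (limma adjusted p = 0.00275), and CD44, the hyaluronan receptor, fell by 1.76 ± 0.36 (limma adjusted p = 0.00292). With only the arrays compared the call of CD44 was lost (limma adjusted p = 0.0569). Of 16 fibronectin receptors and adhesion partners 2 rose and 1 fell, and leaving out ethanol replicate 1 or ethanol replicate 2 left 0 that rose. Leaving out Maraviroc IC50 replicate 1 gave 1 that rose and 2 that fell, and leaving out replicate 2 gave 2 and 2. ITGA5, the alpha chain of the main fibronectin receptor, rose by 0.97 ± 0.33 (limma adjusted p = 0.0478) and SDC4, its co-receptor, by 1.02 ± 0.32 (limma adjusted p = 0.0322), whereas VCL, the adhesion adaptor vinculin, fell by 2.43 ± 0.33 (limma adjusted p = 1.86e-04). The calls of ITGA5 and SDC4 are marginal: ITGA5 was lost without any 1 of the 4 arrays compared (limma adjusted p of 0.0505 to 0.289) and SDC4 without Maraviroc IC50 replicate 1 (0.235), ethanol replicate 1 (0.152) or ethanol replicate 2 (0.0858).

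Of 18 enzymes that mature matrix proteins 1 rose and 4 fell, or 2 and 4 without Maraviroc IC50 replicate 1 and 1 and 2 without ethanol replicate 2. The lysyl oxidase LOXL1 fell by 3.90 ± 0.57 (limma adjusted p = 3.36e-04), the collagen prolyl 3-hydroxylation factor CRTAP fell by 2.98 ± 0.46 (limma adjusted p = 4.49e-04) and the transglutaminase TGM2 fell by 2.54 ± 0.60 (limma adjusted p = 0.00700). P4HA2, a collagen prolyl 4-hydroxylase subunit, rose by 3.11 ± 0.49 (limma adjusted p = 5.58e-04). Of 24 enzymes that make the sugar chains of proteoglycans 4 rose and 4 fell. Those that fell numbered 2 without Maraviroc IC50 replicate 1 and 1 without ethanol replicate 2, and those that rose numbered 7 with quantile normalization and 8 with median centring. DSE, which makes the dermatan sulfate of chains such as that on decorin, rose by 1.53 ± 0.26 and B3GAT3 by 1.28 ± 0.29, while CHST15 fell by 1.82 ± 0.38 and EXT1 fell by 1.16 ± 0.27 (limma adjusted p of 9.99e-04 to 0.00604). Without ethanol replicate 2 the calls of TGM2 and EXT1 were lost, at differences of -2.42 and -0.97. With only the arrays compared, 1 of the 24 enzymes of sugar chains rose and 1 fell. The calls of B3GAT3 and EXT1 were lost in that fit (limma adjusted p = 0.0553 and 0.0628).

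At the DZH_2 IC50 1 of the 53 matrix glycoproteins passed and 0 of the other 4 lists did. Of all genes 0.582% rose and 0.984% fell. The 1 gene was CCN2, which read 9.91 and 10.38 at the IC50, against 12.92 and 12.31 in DMSO (-2.47 ± 0.35, limma adjusted p = 0.00799). CCN2 was thus lower than solvent at the IC50 of either compound. The DZH_2 call was lost without DZH_2 IC50 replicate 1 (limma adjusted p = 0.0771), DMSO replicate 1 (0.143) or DMSO replicate 2 (0.0645), and the log2 difference stayed between -2.77 and -2.17. At the IC20 of either compound 0 genes of any of the 5 lists passed.

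On the arrays titled MCF10, 10 of 53 matrix glycoproteins (18.9%) were lower by at least 1 at both DZH_2 doses and 1 was higher, against 4.88% of all genes lower and 4.52% higher. Of the 10, MFAP2 was near the negative controls on the DZH_2 and DMSO arrays, as was CCN3, the 1 gene higher, so these are not readable as differences and 9 lower genes remain. The list had a median of -0.09 at the IC20 and -0.14 at the IC50. The following genes were named after their values were seen. Relatives of fibulin-1 were among the 10: FBLN5, an elastic fibre protein, differed by -2.22 and -1.89, and EFEMP1, also called fibulin-3, by -1.31 and -2.71. THBS1, thrombospondin-1, differed by -1.11 and -2.03, and IGFBP3, which binds insulin-like growth factors, by -1.40 and -1.83. Of 29 proteoglycans 2 were lower (BGN and TGFBR3) and 1 higher (GPC1), and BGN, the biglycan relative of decorin, was near the negative controls at the IC20, so its difference there is a bound of -1.26, and at the IC50 it differed by -1.47. In the other lists 1 enzyme, CRTAP, was lower, and ITGB1 and UST were higher.

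**Figure D5:**
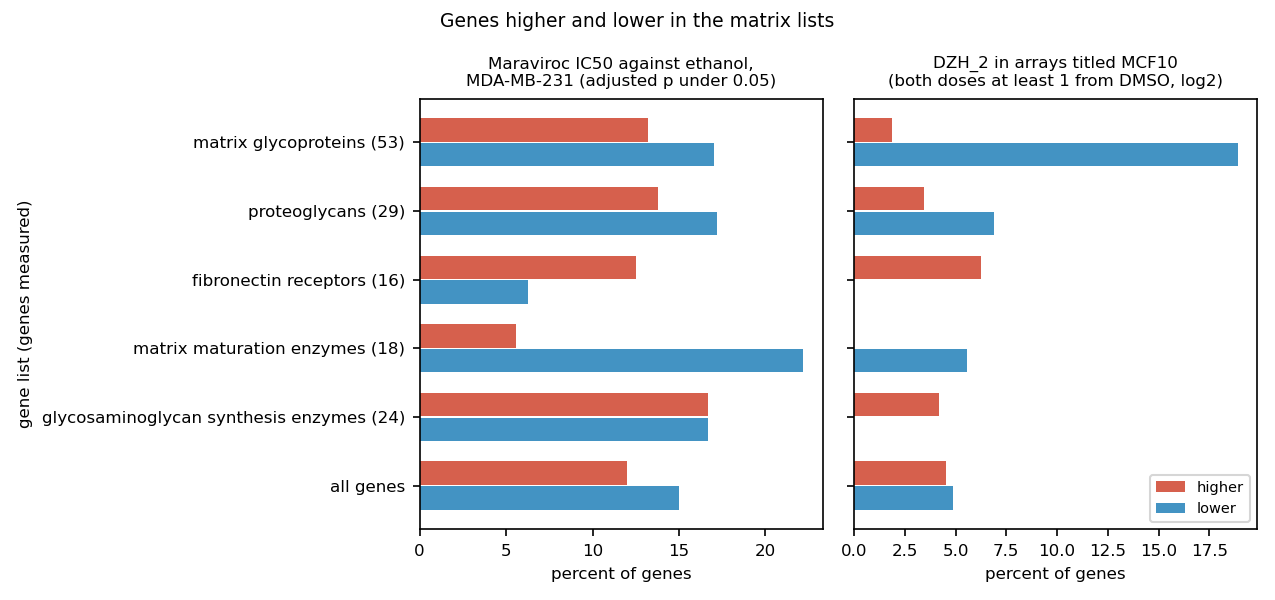
Percent of each gene list (horizontal axis) higher in red and lower in blue, at the Maraviroc IC50 in MDA-MB-231 by adjusted p (left) and at both DZH_2 doses on the arrays titled MCF10 by a log2 difference of at least 1 (right), with all genes at the bottom. Matrix glycoproteins stand at 18.9% lower on the right, against 4.88% of all genes.

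Between the lines, 13 of the 53 matrix glycoproteins (24.5%) lay higher on all 4 arrays titled MCF10 than on all 13 MDA-MB-231 arrays, and 5 lay lower, against 6.04% and 11.9% of all genes. Of the proteoglycans 5 lay higher and 1 lower, and of the fibronectin receptors 5 and 1. Of the 24 enzymes of sugar chains 1 lay higher and 5 lower, or 4.17% and 20.8%. Some separations were narrow and close to the negative controls. ITGA8 was at most 6.10 titled MCF10 and 5.45 in MDA-MB-231, and TNFAIP6 at least 5.92 and at most 5.72. Others were wide, as for POSTN, at least 11.93 and at most 5.50. These shares, that of all genes included, carry no filter on low signal.

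For each gene the 3 others with the most similar pattern were found by Pearson's r over the 17 arrays, among genes with an SD of at least 0.5. The arrays fall into 2 clusters, the lines, so a high r over 17 arrays mostly restates the line difference. FN1 was most like KRT85, TGFBI and ID1 (r of 0.970 each), SPARC most like PHLDA3, S100A4 and TRIM35 (0.977, 0.976 and 0.974), DCN most like TBX3, EFEMP1 and HOXC13 (0.994 each) and FBLN1 most like CADM3, ANPEP and S100A4 (0.997 each). ABI3BP was most like STPG1, SRGAP1 and FBXL5 (0.977, 0.970 and 0.969).

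Within the 13 MDA-MB-231 arrays FN1 was most like SPOCK1, a proteoglycan of the SPARC family, at an r of 0.919. Without the 2 Maraviroc IC50 arrays that r was 0.851, over 11 arrays. EFHD2 and ETV6 followed at 0.904 and 0.895, and at 0.854 and 0.757 without those arrays. SPARC, above the negative controls on 4 of the 13, was most like LINC01496 at 0.970 (0.884 without those arrays), DEUP1 and FAM47C. ABI3BP was most like ECD, SERPINB1 and MSL3, at 0.987, 0.981 and 0.980, which became 0.892, 0.842 and 0.850 without the Maraviroc IC50 arrays. DCN, above the negative controls on 1 array, was most like OR2B3, DSCR10 and CCSER1, at 0.838, 0.744 and 0.727. These correlations are descriptions over arrays that share treatments and normalization.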

How the data were processed

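Log2 signals of 24351 probe sets per array were used as deposited. Per the labels' protocols, RNA was extracted with Trizol, and 5.5 ug of total RNA went into the GeneChip WT PLUS kit. How the authors summarised, background-corrected and normalized them, and on which genome build, is not given in these sources. Of the probe sets, 17709 were paired with 1 gene symbol and 6642, controls included, had no gene listed. Where a gene had several probe sets (20 genes) the one with the highest mean was used, which left 17687 genes. No filter on low signal was applied. A filter keeping genes above the negative controls on at least 2 of 12 arrays left 11801 genes and, of the 5 genes, FN1, SPARC and ABI3BP. Arrays carry no counting depth, and their number limits the precision.

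One limma fit (version 3.58.1, R 4.3.3) covered the 12 MDA-MB-231 arrays whose group had 2 replicates using lmFit, contrasts.fit and eBayes, with 2-sided tests, Benjamini-Hochberg adjustment over all 17687 genes and a threshold of 0.05. Groups of 1 array were described by values, with a log2 difference of 1 as the fold used. Bounds set a gene near the negative controls at the higher of its own signal and their 75th percentile. On simulated data for DZH_2 IC50 against DMSO over 17687 genes (10 runs), the fit found 17.8% of genes given a log2 difference of 1, 75% at 2, 93% at 3 and 98.8% at 4, with 5.32% false calls. The simulation gave every group the same spread, which the data do not have.

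The genes and lists were chosen with earlier results of these data known. The genes named were the 5 members, up to 4 of each list with the smallest p past the threshold, and the 3 genes most like each member (over the MDA-MB-231 arrays too, where the member exceeded the negative controls in any group there). Replicate numbers were not used to pair the arrays in the main fit. The deviations of same-numbered arrays correlated at -0.149 to 0.301 over 15 pairs of groups. The highest values were within a solvent, at 0.301 between the DZH_2 doses and 0.251 between Maraviroc IC20 and ethanol. The other pairs within a solvent lay between -0.034 and 0.122. Whether the arrays are paired within a solvent was not tested. Promoter sequences came from RefSeq (GRCh38.p14). Alternatives were quantile normalization, median centring, only the arrays compared, all 5 control arrays, array weights, the low signal filter, a replicate block, the 90th percentile of the negative controls and leaving out replicates.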

Additional observations from a re-analysis of the deposited data

Results flagged for a closer look

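DCN and FBLN1 had DZH_2 differences of opposite sign in the lines, and neither passed the test in MDA-MB-231. For DCN the mean of the 2 DZH_2 arrays titled MCF10 minus DMSO was -1.06, and that of the 4 DZH_2 arrays of MDA-MB-231 minus DMSO was 0.34. For FBLN1 the values were -1.24 and 0.46. Both genes stood out because every treated array of one line lay on one side of its mean DMSO level and every treated array of the other line on the opposite side. In MDA-MB-231 the DCN arrays at the DZH_2 IC20 overlapped the single DMSO arrays. The difference between the lines was not tested, since the arrays titled MCF10 have no replicates. In MDA-MB-231 both genes were near the negative controls on every DZH_2 and DMSO array, so their differences there are between values with no order.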

How the results depend on the processing

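The values of the 5 genes in the MDA-MB-231 comparisons were recomputed under every alternative, 449 values in all. Of these 405 kept their direction and their side of the threshold, 10 came to pass it, 4 no longer passed it and 30 changed sign, of which 2 were past the threshold: without Maraviroc IC50 replicate 2, FN1 was 1.36 between the Maraviroc doses and -1.70 between the compounds. Those 2 values rest on 1 Maraviroc IC50 array and leave out the wide spread of FN1 between its replicates, so nothing is read from their passing. The cause of these changes was not tested. Against all 5 control arrays, DCN changed sign at the Maraviroc IC20 (0.12) and IC50 (0.10), as ABI3BP did at the IC20 (-0.60). With median centring DCN changed sign at the Maraviroc IC50 (0.044) and against the IC20 (0.14). With quantile normalization DCN (-0.023) and FBLN1 (-0.027) changed sign between the DZH_2 doses. Quantile normalization gave 5.25 for DCN between the lines in DMSO and -0.64 for FBLN1 at the DZH_2 IC20 in the cells titled MCF10, and median centring gave 5.29 for DCN and 9.29 for FBLN1 between the lines. The lower bounds between the lines in DMSO became 4.71 for SPARC, 3.17 for DCN and 6.52 for FBLN1 on the log2 scale with the 90th percentile of the negative controls.

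The counts of all genes that passed moved more. With only the arrays compared they were 1 for Maraviroc IC20, 2399 for Maraviroc IC50, 2632 between the Maraviroc doses, 244 for DZH_2 IC20, 817 for DZH_2 IC50 and 707 for the difference between the compounds. Against all 5 control arrays they were 1 for Maraviroc IC20, 419 for DZH_2 IC20 and 635 for DZH_2 IC50, with array weights 488 and 942 for DZH_2, and without the Maraviroc IC50 arrays 495 and 837. Of the 5 genes, 2 passed at the Maraviroc IC50 against all 5 control arrays (ABI3BP, chosen on that contrast, and SPARC), and 1 at the DZH_2 IC50 with only the arrays compared or without the Maraviroc IC50 arrays. At the Maraviroc IC50 2122 genes rose and 2656 fell, against 2506 and 2337 with quantile normalization and 3018 and 2308 with median centring, where the median of all genes was 0.28 and not 0.11. For the difference between the compounds the split was 711 higher and 380 lower, 679 and 520 with quantile normalization, and 616 and 524 with median centring. At the DZH_2 IC50 it was 103 and 174, then 120 and 116, and 113 and 145.

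With the replicate block 4821 genes passed at the Maraviroc IC50, 204 at the DZH_2 IC20 and 347 at the DZH_2 IC50, and the counts of the 5 genes did not change. Of the values of the named list genes under the alternatives, 193 of 209 at the Maraviroc IC50 and 9 of 12 at the DZH_2 IC50 kept their call, and 0 changed sign.

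Leaving out 1 replicate at a time moved the values as follows. For Maraviroc IC20 the lowest and highest were -0.69 and 0.064 for SPARC, -0.31 and 0.10 for DCN, and -0.78 and 0.83 for ABI3BP. For Maraviroc IC50 they were 2995 and 5080 for all genes that passed, 1 and 2 for the 5 genes, -3.59 and 0.35 for FN1, -0.021 and 2.55 for SPARC, -0.33 and 0.083 for DCN, and -0.23 and 0.52 for FBLN1. Between the Maraviroc doses they were 2662 and 5062 genes, 1 and 4 of the 5 genes, -2.57 and 1.36 for FN1, and -0.054 and 0.018 for DCN. For DZH_2 IC20 they were 2 and 131 genes, -0.42 and 0.31 for SPARC, and -2.90 and 0.23 for ABI3BP. For DZH_2 IC50 they were 2 and 22 genes. Between the DZH_2 doses they were -0.11 and 0.32 for FBLN1, and -1.83 and 1.30 for ABI3BP. For the difference between the compounds they were 448 and 1981 genes, 0 and 3 of the 5 genes, -1.70 and 2.24 for FN1, -1.86 and 0.72 for SPARC, and -0.0030 and 0.75 for FBLN1. For ethanol against DMSO they were -0.22 and 0.53 for SPARC. A group left with 1 array was assumed to vary like the others. Where the Maraviroc IC50 is compared, the counts of the 5 genes take in ABI3BP, which was chosen on its fall there. Nothing is read from those counts.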
